A study of Mus musculus with 10 samples.

Results

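The miR-17, miR-18 and miR-19 families are groups of miRNAs that share a seed, the stretch near the 5′ end of a miRNA that pairs with its targets. They were followed here in mouse liver with and without the Tsc1 gene. Members were the rows of the deposited miRNA table whose name, without the arm, is miR-17, miR-18a, miR-18b, miR-19a, miR-19b, miR-20a, miR-20b, miR-93, miR-106a or miR-106b. Of these 10 names 8 had a row, out of 285 miRNAs in all. No row was found for miR-18b and miR-20b, which were not analysed here. The study sequenced small RNA from 10 livers of mice aged 14 weeks, 5 from a liver Tsc1 knockout, labelled TSC1 mutant, and 5 from littermate controls. Sources used here name neither the Cre driver of the knockout nor the strain or sex. Nothing states that the replicates were single animals, so p-values measure only the spread between these samples, which may in part be technical.

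The families come from 3 related clusters, each made as 1 primary transcript. The miR-17-92 cluster is a direct target of the transcription factors Myc and E2F, and it is abundant in dividing cells and in many tumours, liver tumours included. The miR-106b-25 cluster lies inside Mcm7, which encodes a subunit of the replicative helicase, and the miR-106a-363 cluster lies on the X chromosome. Targets of the miR-17 seed include the cell cycle inhibitor Cdkn1a and the death factor Bcl2l11. The TSC complex, of which Tsc1 is a subunit, restrains the growth kinase complex mTORC1.

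The mature sequences, from RefSeq on GRCm38.p6, show how closely the members are related and where the families part. All 8 members matched an entry. Names without an arm were taken as the guide arm. Sequences run 5′ to 3′ and capitals mark the seed, bases 2 to 8.
miR-17: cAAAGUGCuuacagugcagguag
miR-20a: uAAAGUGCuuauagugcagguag
miR-106a: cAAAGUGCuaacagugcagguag
miR-93: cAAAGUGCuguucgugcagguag
miR-106b: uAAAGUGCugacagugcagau
miR-18a: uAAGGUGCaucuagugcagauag
miR-19a: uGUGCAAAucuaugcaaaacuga
miR-19b: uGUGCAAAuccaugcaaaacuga

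The first 5 share the seed AAAGUGC and form the miR-17 family, miR-18a has AAGGUGC, and the miR-19 pair has GUGCAAA. None of the other miRNAs of the table carried any of these seeds, among the 239 of 285 whose names matched a RefSeq mature sequence. Within the miR-17 family pairs of sequences differ at 1 to 5 of the positions compared. Least alike is miR-93, at 4 positions from miR-17 and 5 from miR-106b, which is also 2 bases shorter. Counted from the 5′ end, miR-17 and miR-106a differ only by U10A, and miR-17 and miR-20a by C1U and C12U. The miR-19 pair differs only by U11C. How the authors assigned reads that fit more than 1 of these sequences is not stated in the labels or the table, so values of such close relatives are uncertain to that extent, most of all that of the rare miR-106a beside miR-17.

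The hairpins of miR-17, miR-18a, miR-19a, miR-20a and 1 copy of miR-19b and miR-92a lie in exons of the non-coding host gene Mir17hg, at 115043671 to 115044506 on chromosome 14 of GRCm38. Those of miR-106b, miR-93 and miR-25 lie within Mcm7 on the same strand, at 138165321 to 138165818 on chromosome 5, the first in an intron and the others over an exon of at least 1 annotated transcript. Those of miR-106a, of the other copy of miR-19b and miR-92a and of miR-363 lie at 52741693 to 52742567 on chromosome X. Reads of miR-19b and miR-92a therefore cannot be assigned to 1 cluster. The partners from these clusters carry a different seed, AUUGCAC, as these 2 show.
miR-25: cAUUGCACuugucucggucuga
miR-92a: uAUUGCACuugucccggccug

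Libraries held between 6228497 and 12129069 miRNA reads, and the values are reads divided by 1 factor per library, called normalised reads below. All 4 hepatocyte markers (miR-122, miR-192, miR-194 and miR-802) were present, summing to between 2818180 and 4980620 normalised reads over the libraries of both genotypes, lowest in replicate 1 of each. Tsc1 messenger RNA is not measured by this assay, and no check of the genotype labels by the deleted gene was possible. Control replicate 1 and Tsc1 mutant replicate 1 stood apart from the rest of their groups in these families, with depths of 10677652 and 10522653 reads inside the range of the other libraries. Genotype differences of members, partners and sums are given with and without this pair of libraries. Library numbers were consecutive within a genotype, so anything that followed them cannot be told apart from genotype.

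No member of the 3 families was called higher or lower in Tsc1 mutant liver. Of the 8 members, 0 rose and 0 fell by limma at an adjusted p of 0.05, and 0 had an unadjusted p under 0.05. Voom on whole reads also called 0. In the limma fit 13.0% of the 285 miRNAs were called, 10.9% higher and 2.11% lower, and 22.5% had an unadjusted p under 0.05. The groups overlapped for every member, whereas 12.6% of all miRNAs had groups that did not. Limma adjusted p-values of the members lay between 0.543 and 0.987. The median log2 difference, mutant minus control, was 0.03 over the members and -0.06 over all miRNAs. In bulk liver RNA, fewer cells of a type and less RNA per cell cannot be told apart.

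The miR-17 family was the most abundant of the 3, and miR-20a was its main member. In controls miR-20a gave 10452 normalised reads in replicate 1, and 3892, 5055, 4722 and 5794 in replicates 2 to 5. In mutants it gave 8786 in replicate 1, and 4322, 6236, 5101 and 5169 in the others. The replicate 1 library was the highest in each genotype, and the other 8 libraries of both genotypes covered the same range. The log2 difference was 0.03 ± 0.27 (SE, n = 5 each), with a 95% interval of -0.57 to 0.63 by limma, and 0.10 without the replicate 1 libraries. As a share of the family's reads, miR-20a made up 51.4 ± 4.77% in control livers and 52.1 ± 4.13% in mutant livers (SD, n = 5 each). These shares count reads of mature sequences of 21 to 23 bases, without correction for unequal ligation.

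The steadiest members were miR-17, which names the family, and miR-93, from the Mcm7 cluster. In controls miR-17 gave 2564 normalised reads in replicate 1 and 1544, 1586, 1769.8 and 1553 in the others. In mutants it gave 1885 in replicate 1 and 1499, 1589, 1665 and 1544 in the others. Outside the replicate 1 libraries its highest value was 1.18 times its lowest, across both genotypes. The log2 difference was -0.12 ± 0.16 (SE), and -0.03 ± 0.10 without the replicate 1 libraries, where the 95% interval ran from -0.25 to 0.18.

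Values of miR-93 were 4614, 2845, 2696, 3111 and 2866 normalised reads in control replicates 1 to 5. In mutants they were 3847, 3128, 3402, 2806 and 3125. Again each replicate 1 library was the highest of its group and the rest overlapped. The log2 difference was 0.04 ± 0.17 (SE), with a 95% interval of -0.33 to 0.40, and 0.11 without the replicate 1 libraries. The interval of miR-93 and that of miR-17, -0.48 to 0.24, exclude a change of 2-fold in either direction.

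The neighbour of miR-93 in Mcm7, miR-106b, was less abundant and varied more. It gave 911 normalised reads in control replicate 1 and 287, 238, 321 and 288 in the other controls. In mutants it gave 613 in replicate 1 and 295, 415, 245 and 339 in the others. The log2 difference was 0.02 ± 0.37 (SE), with a limma interval of -0.80 to 0.84. Without the replicate 1 libraries it was 0.17, with an interval of -0.25 to 0.59.

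The X-linked miR-106a was rare, with 8 to 23 reads per library. Its values were 14.4, 9.95, 11.2, 13.5 and 15.4 normalised reads in the control livers and 19.1, 19.5, 10.5, 17.2 and 14.9 in the mutants. In 3 mutant libraries it lay above every control, and in the other two it did not. Its log2 difference of 0.30 ± 0.24 (SE, limma adjusted p = 0.543) had the smallest p of the 8 members, and it was 0.28 without the replicate 1 libraries. Its cluster partner miR-363-3p, from the AUUGCAC seed family, was as rare, with 6 to 16 reads per library and a log2 difference of 0.35 ± 0.30 (SE, limma adjusted p = 0.593). That of miR-363-3p was 0.14 without control replicate 1, 0.20 without Tsc1 mutant replicate 4 and 0.22 without both replicate 1 libraries.

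The only listed member of the miR-18 family, miR-18a, comes from the miR-17-92 transcript and had 4 to 60 reads per library. Its values were 47.9, 12.1, 16.4, 6.73 and 12.3 normalised reads in the control livers and 29.5, 10.2, 21.0, 12.9 and 12.9 in mutants. The replicate 1 libraries were again the highest of each group. The log2 difference was 0.07 ± 0.47 (SE), with an interval of -0.97 to 1.11. Without the replicate 1 libraries it was 0.26.

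The summed level of the miR-19 family, made in part from the same transcript as miR-17, spanned 10.5-fold from the lowest to the highest liver, and 2.70-fold without the replicate 1 libraries. The miR-17 family spanned 2.16-fold and 1.36-fold. Values of miR-19b were 9717 normalised reads in control replicate 1 and 1121, 1256, 1467 and 1901 in the other controls. In mutants they were 3813 in replicate 1, 2527 in replicate 3, and 1246, 998 and 1146 in replicates 2, 4 and 5. Values of miR-19a were 2012 in control replicate 1 and 203, 226, 251 and 379.7 in the other controls. In mutants they were 732 in replicate 1, 481 in replicate 3, and 202, 115 and 199 in replicates 2, 4 and 5. Both miRNAs ordered the libraries alike at the top, with control replicate 1 first, then mutant replicate 1, mutant replicate 3 and control replicate 5.

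The log2 difference between genotypes was -0.29 ± 0.59 for miR-19b and -0.49 ± 0.68 for miR-19a (SE, n = 5 each). Their 95% intervals by limma ran from -1.60 to 1.01 and from -1.98 to 1.00, wide enough to hold a 2-fold change in either direction. Without control replicate 1 alone the differences turned to 0.26 and 0.11. Without both replicate 1 libraries they were -0.03 and -0.24.

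**Figure D1:**
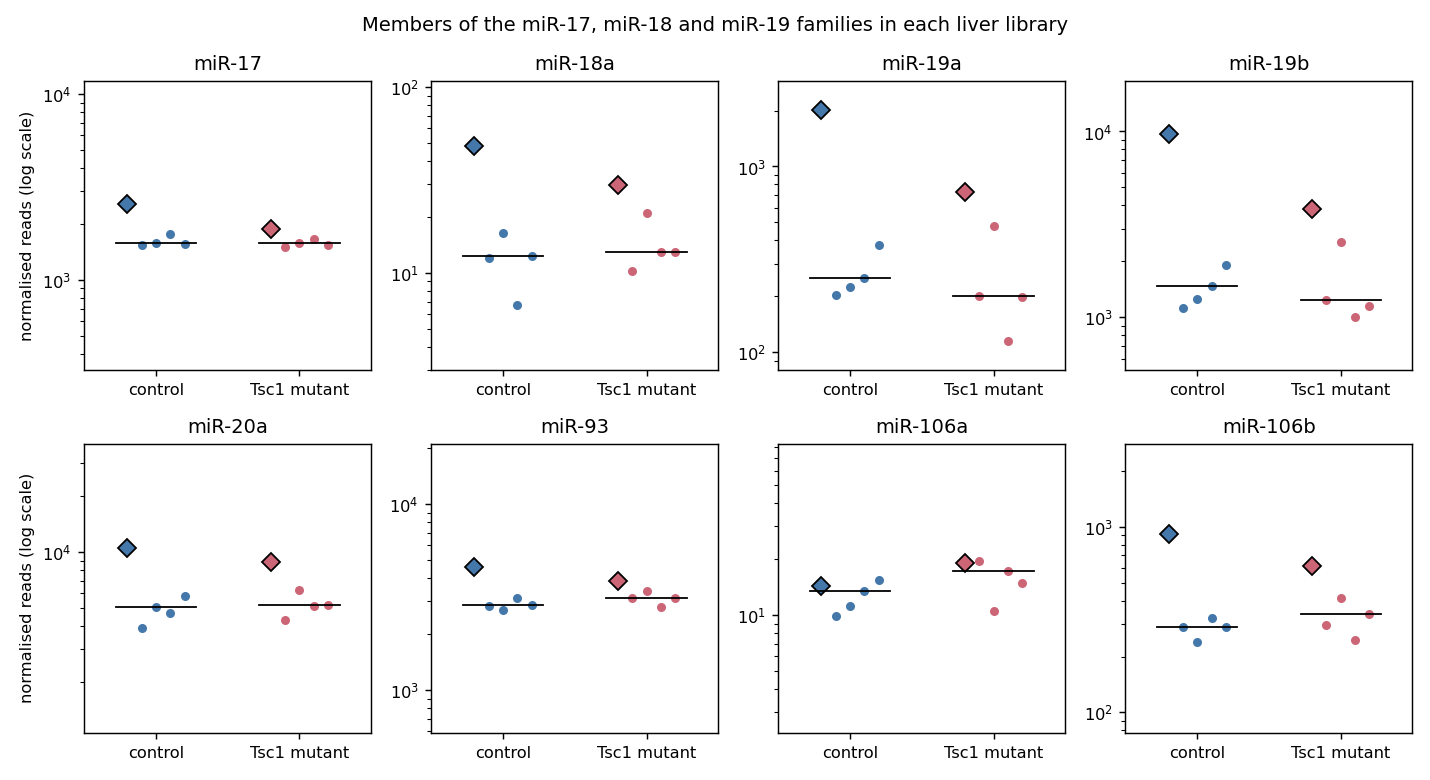
Normalised reads (log scale, each panel spanning the same fold range) of the 8 members in each library, controls in blue and Tsc1 mutants in red. Diamonds are the replicate 1 libraries, circles the others and bars the median of 5; the diamonds top both groups in 7 panels, the exception being miR-106a, and stand farthest out for miR-19a and miR-19b.

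**Figure D2:**
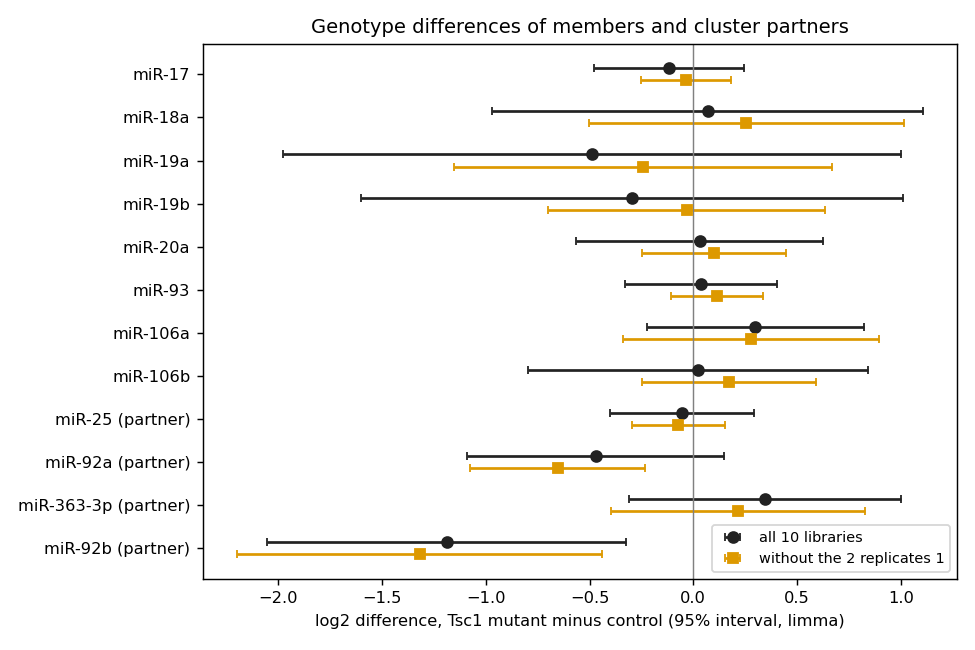
Log2 difference between Tsc1 mutant and control liver with its 95% interval from limma, for the 8 members and the 4 partners, with all 10 libraries (circles) and without the replicate 1 libraries (squares). The hairpin of miR-92b, labelled as a partner, lies outside the clusters. Every member's interval includes 0 in both fits, and the widest intervals with all libraries are those of miR-19a and miR-19b.

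Summed by seed family, the miR-17 family held 11435 ± 4043 normalised reads in control livers and 11218.5 ± 2368 in mutant livers (SD, n = 5 each). The miR-19 family gave 3707 ± 4499 and 2292 ± 1465. The log2 differences were 0.01 ± 0.23 and -0.32 ± 0.70 (SE), with 2-sided exact permutation p = 0.976 and 0.690, and an adjusted p of 0.976 for both over 3 families. Without both replicate 1 libraries they were 0.08 and -0.06, with exact permutation p = 0.457 and 0.886. All members together made up between 0.107% (95% exact binomial interval 0.105 to 0.109%, control replicate 3) and 0.355% (0.352 to 0.359%, control replicate 1) of miRNA reads.

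Summed by cluster, the miRNAs counted from Mir17hg alone (miR-17, miR-18a, miR-19a and miR-20a) held 8420 ± 3795 normalised reads in control livers and 7922 ± 2127 in mutant livers (SD, n = 5 each). Those of Mcm7 gave 23366 ± 2058 and 22654 ± 2653. The 2 listed from the X-linked cluster gave 22.7 ± 2.45 and 28.8 ± 5.34. The log2 differences were -0.03 ± 0.29, -0.05 ± 0.10 and 0.33 ± 0.14 (SE). The smallest p was that of the last, an exact permutation p of 0.0635 with an adjusted p of 0.190 over the 3 clusters. Without Tsc1 mutant replicate 3 the difference of this cluster was 0.43 with an adjusted p of 0.0238 by the same exact test, on a sum of few reads. That library, at 21.0 normalised reads, was the only mutant not above every control, which reached 25.0. Leaving it out thus fixed a complete separation of the groups, which gives the smallest p this test allows. Without both replicate 1 libraries the 3 differences were 0.060, -0.04 and 0.26, with exact permutation p = 0.657, 0.571 and 0.200.

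The cluster partners miR-25, miR-92a and miR-363-3p share transcripts with the members but not their seed. Counted with them was miR-92b, which has the seed of the partners but shares no transcript with the members. Most abundant was miR-92a, at 25146 normalised reads in control replicate 1 and 43295, 82911, 70067 and 56957 in the other controls. In mutants it gave 30291 in replicate 1 and 37705, 37971, 36786 and 44416 in the others. Its log2 difference was -0.47 ± 0.28 (SE, limma adjusted p = 0.410). Without control replicate 3 it was -0.30 (limma adjusted p = 0.656), and without control replicate 4 -0.36 (limma adjusted p = 0.587). It fell past the threshold when control replicate 1 was left out, at -0.73 (limma adjusted p = 0.0210), and when both replicate 1 libraries were, at -0.65 (limma adjusted p = 0.0425). In that last fit 16.1% of all miRNAs were called, 12.3% higher and 3.86% lower, and again 0 of the 8 members. With control replicate 2 left out too, miR-92a was at -0.82 (limma adjusted p = 0.00269). The related miR-92b, whose hairpin lies outside these clusters, was at -1.19 ± 0.39 (SE, limma adjusted p = 0.0791). It also passed without control replicate 1, at -1.43 (limma adjusted p = 0.0214), and without both, at -1.32 (limma adjusted p = 0.0498). Without control replicate 2 it did not, at -0.88 (limma adjusted p = 0.124). Nor did it without that library and both replicate 1 libraries, at -0.98 (limma adjusted p = 0.0620). It had 8 to 98 reads per library, and its groups overlapped.

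From the Mcm7 cluster, miR-25 gave 14499.9 normalised reads in control replicate 1 and between 20153 and 22163 in the other controls. In mutants it gave 14644 in replicate 1 and between 17390.2 and 22477 in the others. So miR-25 was lowest in the very libraries where miR-93 and miR-106b were highest. Its log2 difference was -0.05 ± 0.16 (SE, limma adjusted p = 0.943), and -0.07 without the replicate 1 libraries.

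Products of 1 transcript thus moved unequally between libraries, and ratios within a library, which no scaling between libraries can change, show by how much. The ratio of miR-19a to miR-17 was 0.785 in control replicate 1 against 0.132 to 0.245 in the other controls. In mutants it was 0.388 in replicate 1, 0.302 in replicate 3, and 0.135, 0.0689 and 0.129 in the others. From lowest to highest library it spanned 11.4-fold, and 4.39-fold without the replicate 1 libraries. The ratio of miR-20a to miR-17 spanned only 1.85-fold, from 2.52 to 4.66.

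In the Mcm7 cluster the ratio of miR-106b to miR-93 was 0.197 in control replicate 1 and 0.159 in mutant replicate 1, against 0.0874 to 0.122 in the other 8 libraries. The ratio of miR-25 to miR-93 was 3.14 and 3.81 in these libraries, against 5.11 to 8.01 in the others. Neither ratio of this cluster overlapped between the replicate 1 libraries and the rest. The replicate 1 libraries were set apart for their values of these same miRNAs, so this is a description and no test. Between genotypes all 9 ratios compared had overlapping groups. Their exact permutation p-values ran from 0.389 to 0.976, all with an adjusted p of 0.976. The ratio of miR-92a to miR-17 had a log2 difference of -0.35 ± 0.44 (SE), and of -0.62 without the replicate 1 libraries (exact permutation p = 0.0571, where 4 against 4 libraries allow 0.0286 at best). Without single libraries that ratio ran from -0.75, when control replicate 1 was left out, to -0.14, when control replicate 3 was.

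**Figure D3:**
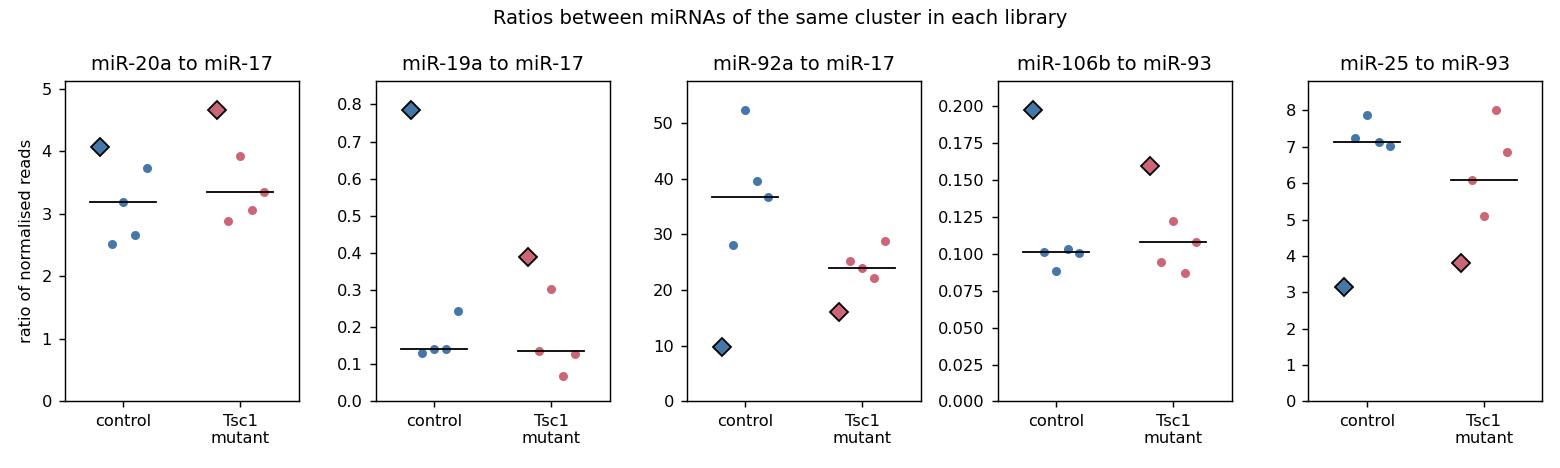
Ratios of normalised reads between miRNAs with a hairpin in the same cluster in each library, on linear axes from 0, with controls in blue and Tsc1 mutants in red. Reads of miR-92a can also come from its hairpin on chromosome X. Diamonds are the replicate 1 libraries, circles the others and bars the median of 5; the diamonds top their groups for miR-20a, miR-19a and miR-106b and are lowest in them for miR-92a and miR-25, while the groups overlap in each panel.

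Within each genotype the members stood high together in the replicate 1 libraries. Set against the median of the other 4 controls, all 8 were higher in control replicate 1, with a median excess of 1.38 (log2). In mutant replicate 1 all 8 were higher than the median of the other mutants, with a median excess of 0.86 (log2). Over all 285 miRNAs these medians were -0.05 and -0.03, with 141 and 136 miRNAs higher. Scaling by 1 factor per library tends to hold such medians near 0, whatever the size of single deviations. Across all miRNAs, deviations of these libraries from their genotype means correlated at 0.81. Far from 0 in both were miR-34a, at 3.81 and 1.97, and miR-744, at -4.19 and -3.53. The libraries were set apart for their values of these same members, so this is a description and no test. The 4 partners, with miR-92b from outside the clusters among them, were lower in both replicate 1 libraries.

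The size of this excess differed between the members. In control replicate 1 miR-19a was 8.43-fold and miR-19b 7.15-fold above the median of the other controls, places 2 and 4 among the 285 miRNAs by that measure. There miR-18a was at 3.71-fold, miR-106b at 3.16-fold, miR-20a at 2.14-fold, miR-17 at 1.63-fold, miR-93 at 1.62-fold and miR-106a at 1.16-fold. In mutant replicate 1 miR-19a was 3.64-fold and miR-19b 3.19-fold above the other mutants, places 4 and 7. The others lay between 1.18-fold for miR-106a and 2.20-fold for miR-18a. With single libraries no test applies to this order.

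The SD within genotypes, on the log2 scale, was 1.23 for miR-19a and 1.08 for miR-19b, places 11 and 15 of 285. It was 0.24 for miR-17 and 0.25 for miR-93, places 236 and 227, and the median over all miRNAs was 0.44. Without the replicate 1 libraries it was 0.66 for miR-19a, 0.48 for miR-19b and 0.08 for miR-17, against a median of 0.31.

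**Figure D4:**
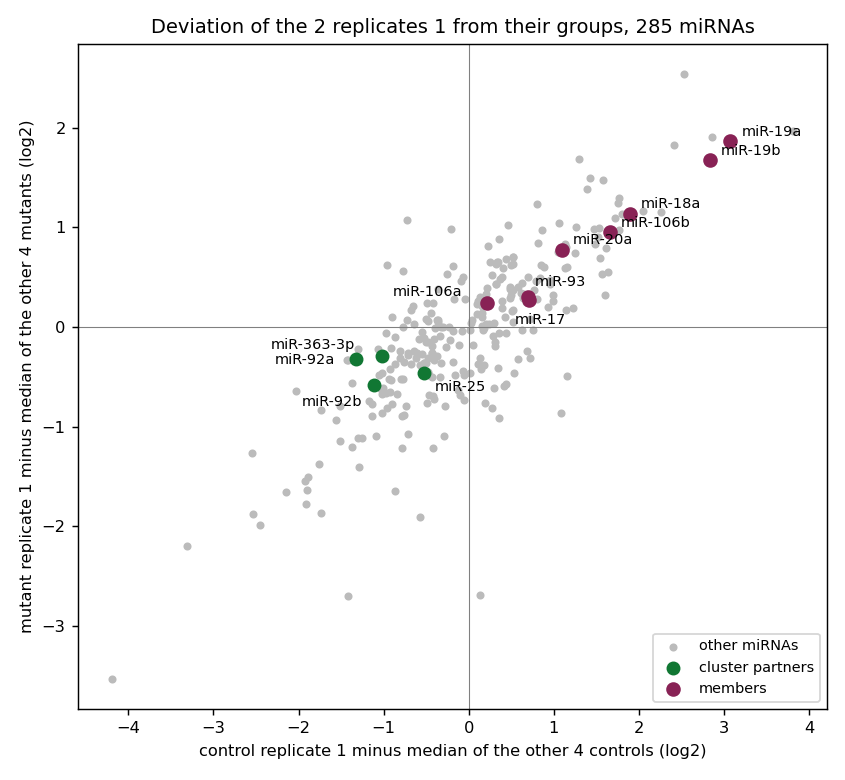
Deviation on the log2 scale of control replicate 1 (x axis) and Tsc1 mutant replicate 1 (y axis) from the median of the other 4 libraries of their genotype, 1 point per miRNA, 285 in all, with members in purple and partners in green. The hairpin of miR-92b, drawn as a partner, lies outside the clusters. All 8 members lie above 0 on both axes with miR-19a and miR-19b near the far end, and the 4 partners lie below 0 on both.

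Markers of other cells moved with these libraries in part. Of 7 leukocyte miRNAs, 6 were above the median of the other controls in control replicate 1 and 4 above that of the mutants in mutant replicate 1, by medians of 0.62 and 0.26 on the log2 scale. Their sum was 29326 normalised reads in control replicate 1, the highest of the controls, whose lowest was 17644. In mutant replicate 1 it was 22575, the highest of the mutants, whose lowest was 16797.5. Of 5 stellate and smooth muscle miRNAs 4 were above in each, by medians of 0.32 and 0.43, with sums of 164279 to 363788 in controls, where replicate 1 had 234055, and 131317 to 243057 in mutants, where replicate 1 was the highest. Of 3 erythroid miRNAs 2 were above in control replicate 1 and 1 in mutant replicate 1, with sums of 3886 to 5924 in controls, where replicate 1 was the highest, and 3431 to 6533 in mutants, where it had 5594. The hepatocyte sum was the lowest of its group in both replicate 1 libraries, at 2818180 and 3027990 normalised reads, with 1 of 4 markers above the other controls and 2 of 4 above the other mutants. Of 5 biliary epithelial miRNAs 3 were above in control replicate 1 and 0 in mutant replicate 1. Their sum was 5604 in control replicate 1, with controls from 4996 to 35789. In mutant replicate 1 it was 3126, the lowest of the mutants. The endothelial sum was the lowest of its group in both replicate 1 libraries, at 113035 and 114892. Of 3 striated muscle miRNAs 0 were above in control replicate 1, whose sum of 268 was the lowest of the controls. In mutant replicate 1, 1 was above, with a sum of 177 where mutants ran from 151 to 919. No marker of any list was at 0 in a library. The part of these cells in the high values of the members was not tested.

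The base composition of the mature sequences also differed between members, with 34.8% G and C in miR-19a, 39.1% in miR-19b and in miR-20a, 42.9% in miR-106b, 43.5% in miR-18a, 47.8% in miR-17 and miR-106a and 52.2% in miR-93. In control replicate 1 the excess was largest for miR-19a and miR-19b, and smallest for the members richest in G and C, miR-17, miR-93 and miR-106a. Between these, miR-18a and miR-106b stood higher than miR-20a. The partners were low there, at 40.9% for miR-363-3p, 50% for miR-25, 57.1% for miR-92a and 63.6% for miR-92b. The part of base composition in the excess was not tested. Over the 239 miRNAs with a RefSeq sequence, as the mean of both arms where the name gives none, the deviation of control replicate 1 had a Spearman correlation of -0.12 with this share. That of mutant replicate 1 had one of 0.0038. These are descriptions across miRNAs, which are not independent.

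Other miRNAs had the same profile over the libraries. Likeness was measured as Pearson's r over the 10 libraries, with genotype means removed, to the mean of the members, and these values rest to a large part on the replicate 1 libraries. The 5 most alike outside the clusters were miR-29c (0.98), miR-34a (0.97), miR-7a (0.96), miR-511-3p (0.96) and miR-542-3p (0.96). The p53 target miR-34a, which restrains cell division, was 3.81 above the other controls on the log2 scale in control replicate 1. Without the replicate 1 libraries the r of these 5 was 0.95, 0.79, 0.59, 0.62 and 0.77 over 8 libraries. The 5 most opposite were miR-125b-5p (-0.99), miR-351 (-0.98), miR-744 (-0.97), let-7c (-0.96) and miR-340-3p (-0.96), and over 8 libraries their r was -0.91, -0.77, -0.85, -0.75 and -0.81. Beyond 0.9 in either direction were 54 of the 273 miRNAs that are neither members nor partners.

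Among the members themselves, the r of each with the mean of the other 7 was 0.99 for miR-19b, 0.97 for miR-19a, 0.96 for miR-20a and miR-106b, 0.95 for miR-93, 0.88 for miR-17, 0.86 for miR-18a and 0.18 for miR-106a. Over 8 libraries miR-19b kept 0.97 and miR-19a 0.94, whereas miR-17 was at -0.13 and miR-106a at -0.50. The low value of miR-106a has 8 to 23 reads behind it.

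Other miRNAs tied to Myc and to the cell cycle were counted in the same fit, in which 10.9% of all miRNAs were called higher and 2.11% lower. Of 18 miRNAs reported as repressed by Myc, 1 rose and 0 fell, with a median log2 difference of 0.14. The one that rose was miR-29a, at 0.34 (limma adjusted p = 0.0395), and its call was lost without any 1 of the libraries other than control replicate 1, with limma adjusted p-values of 0.0638 to 0.116. The call was also lost under each of the other scalings (limma adjusted p-values of 0.0588 to 0.0883), without the trend (limma adjusted p = 0.117) and with voom (adjusted p = 0.0605). It held with other pseudocounts and filters, array weights and the replicate block. The call also held without both replicate 1 libraries, at 0.37 (limma adjusted p = 0.00982). With control replicate 2 left out too, miR-29a was at 0.35 (limma adjusted p = 0.0160). Of the 5 miRNAs of the miR-15 and miR-16 seed family, which represses cyclins, 0 were called, with a median of -0.08. These lists share miR-15a, miR-16 and miR-195. Among the cell type lists 1 of 4 hepatocyte miRNAs rose, miR-802, at 1.72 (limma adjusted p = 0.000258). In the leukocyte, erythroid, biliary epithelial, stellate and smooth muscle, endothelial and striated muscle lists 0 miRNAs were called, with median log2 differences of -0.21, 0.11, -0.74, -0.10, -0.05 and -1.27.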

How the data were processed

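Small RNA of 10 mouse livers was read on an Illumina sequencer, per the labels' protocols. The authors deposited a normalised signal per mature miRNA and library, made from read counts with 1 scaling factor for each library. DESeq is named in the submitters' processing notes, with aligner, annotation, build and filters not given in the sources used here. Each value was a whole multiple of 1 step per library (within 0.001, in 100% of values), which gave the reads quoted. Depth therefore limits only miR-18a, miR-106a, miR-363-3p and miR-92b. Binomial intervals cover counting error only, since the sources used here name no molecular identifiers. Columns were matched to samples by library number.

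Values were compared as log2(value + 1) with limma 3.58.1 (R 4.3.3), with genotype as the term, an intensity trend and Benjamini-Hochberg adjustment over the 285 miRNAs; differences are on that scale, which understates those of rare miRNAs. A minimum mean of 5 normalised reads removed none. Tested on simulated libraries, the fit recovered 67.0% of 2-fold and 91.9% of 4-fold changes in this comparison of 285 miRNAs, with 4.79% false calls. Errors were independent there, unlike in the data. The rates are averages over miRNAs drawn at random, and none was taken for the members alone. Members had a median SD within genotypes of 0.56, against 0.44 over all miRNAs. It ran from 0.24 for miR-17 to 1.23 for miR-19a. Sums and ratios were put to 2-sided exact permutation tests (252 splits), with a smallest p of 0.00794. Members and lists were chosen with earlier results of these data known. Named were all members and partners and, by rule, the 5 most and 5 least alike profiles; other called miRNAs were named because their number was small. Of 45 pairs of libraries, 0 were identical or agreed within sampling noise (chi-square test). Figures were drawn with matplotlib 3.10.9.

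Alternatives were other pseudocounts, filters and scalings (trimmed mean factors computed without edgeR), limma with array weights or without trend, the replicate number as a block, and left-out libraries. Voom on whole reads was added after the data were seen.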

Additional observations from a re-analysis of the deposited data

Results flagged for a closer look

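The 5 values of a genotype were checked for a single library at a distance from its group, 54 times in all. The measure was the gap to the next value over the range, with a cut of 0.71. It was taken on unlogged values, and the number on the log2 scale used elsewhere was not counted. A library past the cut was found 18 times, and about 2.7 would arise by chance. But sums and ratios hold the same members, so these are not separate events. Each time the library was control replicate 1.

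It was the highest control for 7 of the 8 members. It gave 2564 normalised reads for miR-17 against at most 1769.8 in the other controls, 47.9 for miR-18a against at most 16.4, and 2012 for miR-19a against at most 379.7. It gave 9717 for miR-19b against at most 1901, 10452 for miR-20a against at most 5794, 4614 for miR-93 against at most 3111, and 911 for miR-106b against at most 321. It was the lowest control for the partner miR-25, at 14499.9 against at least 20153.

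The sums and ratios stood apart with them. The sum of the miR-17 family was 18556 normalised reads there, that of the miR-19 family 11729, that of the 4 miRNAs counted from Mir17hg 15077 and that of all members 30334. The ratio of the miR-19 to the miR-17 family was 0.632, that of the Mir17hg miRNAs to those of Mcm7 0.753, that of miR-19a to miR-17 0.785 and that of miR-106b to miR-93 0.197. At the low end were the ratio of the X-linked miRNAs to those of Mir17hg, 0.00127, and that of miR-25 to miR-93, 3.14.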

How the results depend on the processing

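Across 190 values of the members under 24 other settings, 0 passed the threshold, and the smallest limma adjusted p was 0.351. Directions near 0 turned under some settings. With the same total per library without miR-122, the log2 difference was -0.0016 for miR-20a, -0.0092 for miR-106b and -0.024 for the miR-17 family sum. The sum counted from Mir17hg was at 0.014 with the same total per library and 0.00072 with the upper quartile. Without both replicate 1 libraries it was 0.060, the sum of all members 0.070 and the ratio of miR-106b to miR-93 0.059. With control replicate 2 left out as well, miR-20a was at -0.0023, the sum of all members at 0.0061 and that ratio at 0.073. The causes of these turns were not tested. With each library left out in turn, the log2 differences ran from -0.17 to 0.018 for miR-17, -0.20 to 0.47 for miR-18a, -0.84 to 0.11 for miR-19a, -0.59 to 0.26 for miR-19b, -0.12 to 0.25 for miR-20a, -0.024 to 0.17 for miR-93, 0.22 to 0.44 for miR-106a, -0.17 to 0.36 for miR-106b, -0.16 to 0.035 for miR-25, 0.14 to 0.47 for miR-363-3p, -0.73 to -0.30 for miR-92a and -1.43 to -0.88 for miR-92b. For the sums they ran from -0.11 to 0.20 for the miR-17 family, -0.21 to 0.50 for miR-18a, -0.62 to 0.24 for the miR-19 family, -0.17 to 0.20 for Mir17hg, -0.10 to 0.011 for Mcm7, 0.24 to 0.43 for the X-linked miRNAs and -0.21 to 0.22 for all members. For the ratios they ran from -0.52 to 0.045 for the miR-19 to the miR-17 family, -0.18 to 0.30 for the miR-18 to the miR-17 family, -0.19 to 0.30 for Mir17hg to Mcm7, -0.67 to 0.087 for miR-19a to miR-17, -0.14 to 0.19 for miR-106b to miR-93, -0.34 to 0.060 for miR-25 to miR-93, -0.75 to -0.14 for miR-92a to miR-17, 0.045 to 0.24 for miR-20a to miR-17 and 0.065 to 0.50 for the X-linked miRNAs to those of Mir17hg. With array weights miR-92a was at -0.75 (limma adjusted p = 0.00941) and miR-92b at -1.18 (limma adjusted p = 0.0131). A filter on a mean of 50 normalised reads left no value for miR-18a and miR-106a.

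Deviations of same-numbered libraries correlated at 0.81, 0.16, -0.02, 0.46 and 0.05 for replicates 1 to 5. Those numbered 1 and those numbered 4 each correlated best with each other and the rest did not. The labels state nothing shared behind a number, and not every pair correlated, so the pairing was not used in the reported values. With the replicate block 0 members passed, and the calls over all miRNAs went from 31 higher and 6 lower to 35 and 10. In that fit miR-19a stayed at -0.49 (limma adjusted p = 0.399) and miR-92b passed at -1.19 (limma adjusted p = 0.0221). For sums and ratios the block was a sign-flip test of 5 pairs, which cannot go below 0.0625.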
